A study of Mus musculus with 4 samples.

Results

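Gene deserts are long stretches of the genome without protein-coding genes, and this account describes the chromatin that was open in them in every library of the study. Peaks of the 4 deposited lists on chromosomes 1 to 19 were merged where they overlapped, and a region was kept when all 4 libraries called it and it lay more than 50 kb from every protein-coding gene span. The rule kept 5972 regions of 166883 merged regions. It used the peak calls and the distance, so the openness of these regions in every library is a property they were chosen for. The remaining 50455 of the 56427 regions shared by all libraries lay nearer to genes and serve for comparison.

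All libraries came from 2TS22C mouse embryonic stem cells given DOX, in which the cells' prior SOX2 expression had been silenced and a lentivirus supplied the SOX factor. The SOX17FNV group (2 libraries) received SOX17FNV, an engineered form of the endoderm factor SOX17, and the SOX2 group (2 libraries) received SOX2, the pluripotency factor. The medium was 2i with serum and LIF, each library started from 900000 cells, and accessibility was read by ATAC-seq, in which a transposase inserts sequencing adapters into open DNA. All cells are of 1 line, and the titles call the replicates biological without saying how they were separated, so p-values measure the spread between these libraries. The peak lists held 120341 and 92851 peaks in SOX17FNV replicates 1 and 2, and 123214 and 96500 peaks in SOX2 replicates 1 and 2. Peaks lay at 10 of 10 stem cell marker genes in each library. Of 10 fibroblast markers, 6 or 7 had a peak in a library, with Col3a1, Postn and Dcn lacking one in all, and 4 of 6 endoderm markers had one, with Gata4 and Afp lacking one in all.

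Open chromatin far from genes often marks enhancers, which act on promoters over long distances by looping. Genes that steer development commonly sit beside deserts rich in such elements, and the SOX factors, which bind DNA through an HMG box and often pair with POU factors such as OCT4, are known to occupy many of them. Deserts also hold long non-coding RNA (lncRNA) genes and microRNA genes, whose own promoters can be open.

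Of 3269 lncRNA promoter windows over 50 kb from protein-coding spans, 179 (of 160 genes) lay wholly inside a shared desert region. A window runs from 250 bases before to 50 after the start, 5 prime to 3 prime on the gene's strand, with sequence from RefSeq. The 5 windows below are shown because their regions carry results: Gm33714 and Gm52029 stood in regions lower in SOX17FNV libraries, 1700062C10Rik in a region higher there, Platr26 in a region of a pluripotency-associated transcript and BC002059 in one of the 10 strongest regions. Capitals mark any match, on either strand, to the motifs CATTGT and CTTTGT (HMG-box cores), AACAATG (a longer SOX site, which contains the first core on its other strand), ATGCAAAT (octamer), CACGTG (E-box) or GGGCGG (GC box).
Gm33714, GRCm38.p6 chr5:144479750-144480049, minus strand: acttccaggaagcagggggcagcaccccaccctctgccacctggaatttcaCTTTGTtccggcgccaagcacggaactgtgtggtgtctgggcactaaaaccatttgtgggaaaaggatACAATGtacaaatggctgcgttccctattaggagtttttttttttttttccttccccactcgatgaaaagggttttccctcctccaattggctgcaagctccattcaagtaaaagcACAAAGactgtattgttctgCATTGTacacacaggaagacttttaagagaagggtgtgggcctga
Gm52029, GRCm38.p6 chr13:47855909-47856208, minus strand: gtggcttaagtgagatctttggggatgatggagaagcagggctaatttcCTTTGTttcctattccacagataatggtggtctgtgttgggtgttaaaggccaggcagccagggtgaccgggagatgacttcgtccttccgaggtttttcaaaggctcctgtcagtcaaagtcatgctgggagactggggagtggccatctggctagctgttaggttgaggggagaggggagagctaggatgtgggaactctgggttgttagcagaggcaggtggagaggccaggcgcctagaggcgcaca
1700062C10Rik, GRCm38.p6 chr14:16037216-16037515, minus strand: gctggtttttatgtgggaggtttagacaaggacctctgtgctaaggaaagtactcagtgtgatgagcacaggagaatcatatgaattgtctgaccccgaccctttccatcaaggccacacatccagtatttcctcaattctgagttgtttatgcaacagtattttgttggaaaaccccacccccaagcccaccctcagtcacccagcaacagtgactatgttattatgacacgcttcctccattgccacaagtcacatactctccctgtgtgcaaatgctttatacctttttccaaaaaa
Platr26, GRCm38.p6 chr2:71719167-71719466, plus strand: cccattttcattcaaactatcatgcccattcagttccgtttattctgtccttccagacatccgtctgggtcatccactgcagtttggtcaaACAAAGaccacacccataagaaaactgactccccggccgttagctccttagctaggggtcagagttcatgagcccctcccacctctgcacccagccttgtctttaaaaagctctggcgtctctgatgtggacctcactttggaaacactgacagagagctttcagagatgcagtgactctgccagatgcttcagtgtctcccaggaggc
BC002059, GRCm38.p6 chr17:16951286-16951585, plus strand: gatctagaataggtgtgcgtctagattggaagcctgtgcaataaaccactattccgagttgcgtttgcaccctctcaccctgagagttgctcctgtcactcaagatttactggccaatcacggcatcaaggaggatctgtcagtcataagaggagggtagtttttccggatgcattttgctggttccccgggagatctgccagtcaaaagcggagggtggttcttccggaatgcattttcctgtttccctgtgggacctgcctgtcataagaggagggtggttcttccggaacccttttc

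The window of Gm33714 held 4 HMG-core matches, those of Gm52029 and Platr26 held 1 each, and the windows of 1700062C10Rik and BC002059 held none of these letters. Over all windows, the GC box was in 25.1% of the 179 windows inside shared desert regions, against 5.76% of the 3090 desert windows outside them and 36% of all 31395 promoters. The E-box was in 10.6% inside, against 4.98% outside and 7.14% of all promoters. The octamer was in 4.47% inside, against 2.52% outside and 1.75% of all promoters. SOX letters were no more frequent inside than outside. AACAATG was in 5.03% inside, against 6.99% outside and 3.75% of all promoters. CATTGT was in 14.5% inside, against 20.6% outside and 12.2% of all promoters, and CTTTGT in 23.5% inside, against 25.3% outside and 18.6% of all promoters. The shares describe letters in a window and were not tested, and the HMG cores were added after the other motifs had been counted.

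Of 136 microRNA hairpins over 50 kb from protein-coding spans, 5 had a shared desert region within 1 kb. They are shown because they are the microRNA genes of these deserts at or within 1 kb of shared open chromatin, by 1 mature strand of each of 4 genes. Capitals mark the seed, bases 2 to 8, and the 4 seeds differ.
mmu-miR-9-5p: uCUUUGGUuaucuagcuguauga
mmu-miR-137-3p: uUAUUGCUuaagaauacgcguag
mmu-miR-125b-5p: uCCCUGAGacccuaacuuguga
mmu-miR-205-5p: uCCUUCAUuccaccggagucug

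The Mir9-2 hairpin, of a microRNA abundant in neural progenitors, overlapped its region. That region had summit pileups of 11 and 13 fragments in SOX17FNV libraries, against 21 and 18 in SOX2 libraries. The groups did not overlap, but the difference did not pass the test (log2 difference -0.55, SE 0.30, limma adjusted p = 0.439). The regions by Mir137, Mir125b-1 and Mir205 did not pass it either, with log2 differences of -0.11, 0.34 and -0.13.

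Shared desert regions lay a median of 111 kb (110774 bp) from the nearest protein-coding span, 474 of them over 500 kb away and 163 over 1000 kb away. Deserts, the stretches more than 50 kb from any such span, made up 34.9% of the length between the first and last genes of the chromosomes. They held 7.10 shared regions per Mb, against 32.3 per Mb in the rest. Of all 22810 desert regions called by any library, 26.2% were shared by all 4, against 35.0% of the 144073 other regions. Regions called in both libraries of one group and neither of the other numbered 839 for SOX17FNV (3.68%) and 1285 for SOX2 (5.63%) in deserts, against 2.997% for SOX17FNV and 3.75% for SOX2 among the other regions.

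Each peak's fold enrichment is the authors' own value, the summit pileup over the local background, with a small constant added to each. A pileup, the number of fragments over the summit, was solved from it and its p-value. Shared desert regions had lower summits on a lower background than shared regions nearer to genes. Their median pileups were 28 and 20 fragments in SOX17FNV libraries and 30 and 24 in SOX2 libraries. The other shared regions had 34 and 25 in SOX17FNV libraries and 35 and 28 in SOX2 libraries. The median local background of desert regions was 4.28 and 3.45 fragments in SOX17FNV libraries and 4.60 and 5.07 in SOX2 libraries. That of the other shared regions was 6.63 and 5.09 in SOX17FNV libraries and 7.18 and 7.20 in SOX2 libraries. Both measures were lower in deserts in 4 of 4 libraries. Within 1 kb of a gene end, median pileups were 46 and 36 in SOX17FNV libraries and 49 and 40 in SOX2 libraries. Inside genes they were 30 and 22 in SOX17FNV libraries and 31 and 25 in SOX2 libraries, still above the desert values.

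The fold enrichment of desert regions ranked higher within each list than that of other shared regions together, although desert summits ranked lower. Desert regions stood at median percentiles of 77.6 and 67.6 in SOX17FNV libraries and 79.5 and 70.0 in SOX2 libraries. The other shared regions stood at 72.0 and 65.7 in SOX17FNV libraries and 71.2 and 66.1 in SOX2 libraries. The mean difference was 4.94 ± 2.70 percentile points (SD, n = 4 libraries, higher in 4 of 4), with a two-sided exact sign-flip p of 0.125, the smallest that 4 libraries allow. Ranked by pileup in place of fold, desert regions stood 11.5 points lower (-11.5, exact p = 0.125). The other shared regions mixed unlike places. By fold, those within 1 kb of a gene end stood at 80.1 and 78.5 in SOX17FNV libraries and 79.1 and 80.2 in SOX2 libraries. These were above desert regions in each library except SOX2 replicate 1. Those inside genes stood at 68.1 and 59.8 in SOX17FNV libraries and 67.3 and 59.7 in SOX2 libraries. Desert peaks were also narrower than those of other shared regions together. Desert medians were 610 and 484 bp in SOX17FNV libraries and 613 and 483 bp in SOX2 libraries. The mean difference from other shared regions was -64.3 bp (SD 14.5, exact p = 0.125). Widths were 912 and 755 bp in SOX17FNV libraries and 942 and 802 bp in SOX2 libraries within 1 kb of a gene end. Inside genes they were 608 and 469 bp in SOX17FNV libraries and 614 and 465 bp in SOX2 libraries, close to desert widths.

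Within deserts, the background went down with distance to the lowest value in each list, and the percentile of fold went up to 1000 kb and was lower beyond. From 50 to 100 kb (2663 regions) the median percentiles were 75.1 and 65.9 in SOX17FNV libraries and 76.0 and 67.3 in SOX2 libraries. From 500 to 1000 kb (311 regions) they were 83.1 and 76.1 in SOX17FNV libraries and 87.0 and 80.6 in SOX2 libraries. Over 1000 kb (163 regions) they were 78.4 and 72.2 in SOX17FNV libraries and 81.8 and 71.4 in SOX2 libraries. Median pileups lay between 26 and 28 fragments in SOX17FNV replicate 1 and between 29 and 30 in SOX2 replicate 1 from 50 to 1000 kb. At the threshold itself, the nearest regions inside it lay 50006, 50029 and 50029 bp from Ccn6, Tac4 and Gm52612. Those just outside lay 49997, 49964 and 49958 bp from Aoah, Cdh5 and Zfp217, and their pileups spanned 12 to 39 fragments, against 15 to 38 just inside.

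**Figure D1:**
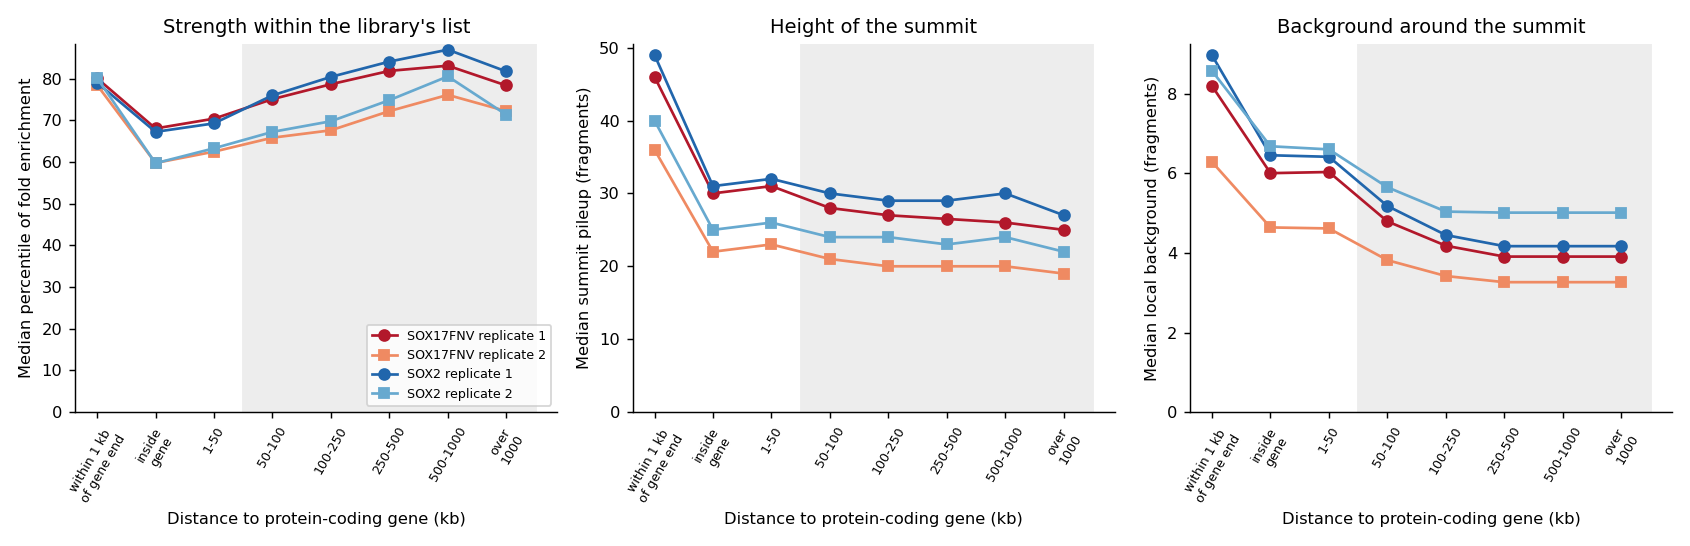
Median percentile of fold enrichment within the library's list, median summit pileup and median local background (both in fragments) of shared regions by distance to the nearest protein-coding gene, 1 line per library, with the desert bands shaded. From 50 kb outward the percentiles climb to 83.1 and 87.0 in the first replicates at 500 to 1000 kb and are 78.4 and 81.8 over 1000 kb, while the background falls to the lowest value of each list.

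Shared regions were spread unevenly over the 2476 deserts. A member lay in 1548 deserts, of median length 209 kb, and none in the other 928, of median length 47.3 kb. Of the 488 deserts of at least 0.5 Mb, 60 held none. The 121 deserts with at least 10 members, a set chosen by that count, held 29.2% of all members in 15.3% of the desert length. The fullest lay between 1810013L24Rik and Grin2a, a glutamate receptor subunit, on chromosome 16, with 39 regions (64.0 per Mb). Next came Plekhb2 to Hs6st1 on chromosome 1 with 33, Enc1 to Arhgef28 on chromosome 13 with 32, Cd83 to Jarid2 on chromosome 13 with 27 and Sall3 to Galr1 on chromosome 18 with 25. Jarid2 encodes a cofactor of Polycomb repressive complex 2. By density, Sdk2 to Rpl38 on chromosome 11 (47.9 per Mb) and Mn1 to Cryba4 on chromosome 5 (34.8 per Mb) also stood high. The median desert of at least 0.5 Mb held 3.36 regions per Mb.

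The 3 longest deserts had 2.49 to 3.83 regions per Mb, near that median. The 4.44 Mb between Pcdh20 and Pcdh9, which encode neural protocadherins, on chromosome 14 held 17 regions, and the 4.41 Mb between Celf4 and Pik3c3 on chromosome 18 held 11. The 2.32 Mb between Flrt2 and Galc on chromosome 12 held none, and neither did the 2.02 Mb between Lcorl and Slit2 on chromosome 5. Of the 5 members farthest from any gene, 4 lay in the desert between Olfm4 and Pcdh17, a protocadherin gene, on chromosome 14, up to 2204 kb away. The fifth lay 2187 kb from Pik3c3.

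Most members stood alone. Runs with gaps of at most 12500 bp numbered 4333, and 3340 of them were single regions (55.9% of members), while 65 runs of 5 or more held 390. The longest runs had 12 members each, 1 by Grin2a and 1 beside Sox2. Members in runs of 5 or more had higher summits than single members, relative to the library median over shared regions. Their median relative pileups were 1.06 and 1.08 in SOX17FNV libraries and 1.09 and 1.04 in SOX2 libraries, against 0.79 and 0.79 in SOX17FNV libraries and 0.80 and 0.82 in SOX2 libraries for single members (exact p = 0.125, higher in 4 of 4 libraries). Their median background was also higher, at 7.66 and 5.91 in SOX17FNV libraries and 8.33 and 7.79 in SOX2 libraries, against 3.91 and 3.27 in SOX17FNV libraries and 4.17 and 5.02 in SOX2 libraries. The percentile of fold was lower in runs, by 16.9 points on average (-16.9, SD 3.16). This comparison was added after the runs had been listed.

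The strongest desert regions were ranked by their mean percentile of fold. The region 282 kb from Pex2, a peroxisome biogenesis gene, at chr3:5860350-5860819 had pileups of 109 and 86 in SOX17FNV libraries, against 97 and 110 in SOX2 libraries, and the highest mean percentile of fold. Other leading regions lay nearest to Samd9l, Gm15319, Gm51425, Mmp16, Tprg, Gm28710, Penk and 9530057J20Rik. None of these regions, that by Pex2 included, passed the test between groups. By relative pileup, a ranking added after seeing the data, the region 1035 kb from Lrrc4c at chr2:98666248-98667301 led, with 126 and 120 fragments in SOX17FNV libraries, against 111 and 128 in SOX2 libraries. That stretch of chromosome 2 is known for satellite repeats that collect excess reads in many mouse data sets, and no list of such stretches was applied here. The only region in the leading 10 beside a pluripotency gene of the lists was in the desert between Sox2 and Atp11b.

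The comparison of SOX17FNV with SOX2 asks which open desert chromatin differs when the engineered factor keeps the cells. Relative pileups were tested with limma on the log2 scale over all 56427 shared regions, with Benjamini-Hochberg adjustment and a threshold of 0.05. Of the desert regions, 220 (3.68%) passed, 77 higher and 143 lower in SOX17FNV libraries, where 2.01% of all shared regions passed. The higher ones were 1.29% of desert regions, where 0.881% of all shared regions were called higher, and the lower ones 2.39%, where 1.13% were called lower. Among the other shared regions 1.81% passed. The share was 0.587% within 1 kb of a gene end, 2.38% inside genes and 2.2% at 1 to 50 kb. Unadjusted p-values under 0.05 were found for 1088 desert regions (18.2%), where 13.4% of all shared regions had one. The rule required a peak in all 4 libraries, so regions lost in a group could not enter and 82 of the 143 lower regions had 15 or fewer fragments in a SOX17FNV library.

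These counts rested on the libraries and the scaling. Without SOX2 replicate 1, 7 regions were higher and 7 lower. Without SOX17FNV replicate 2, 34 were higher and 180 lower, without SOX17FNV replicate 1, 79 and 219, and without SOX2 replicate 2, 67 and 77. Scaling each library by the median of the same chromosome gave 46 higher and 148 lower, and testing the deposited fold enrichment in place of the pileup gave 9 higher and 41 lower. Quantile normalization gave 17 and 38, and limma without its trend 22 and 54. In the fits with 1 library in a group, that library is assumed to vary like the others. Of 43 called regions followed through the alternatives, among them every called region described here, 37 lost the call without SOX2 replicate 1, 18 without SOX2 replicate 2, 16 without SOX17FNV replicate 2 and 6 without SOX17FNV replicate 1. None changed direction when a library was left out, while 3 did on the deposited fold.

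The median over all desert regions was close in the 4 libraries. The median log2 relative pileup of desert regions was -0.24 and -0.26 in SOX17FNV libraries, against -0.22 and -0.22 in SOX2 libraries (difference -0.03, two-sided exact permutation p = 0.333, the smallest that 2 against 2 allows). Over members, the log2 pileup correlated between the libraries of a group with Pearson's r of 0.792 for SOX17FNV and 0.783 for SOX2, and between groups with 0.626 to 0.727 (n = 5972 regions, which share depth and peak calling). Both SOX17FNV libraries lay below both SOX2 libraries in 23% of desert regions, where 18.0% of all shared regions did, and above them in 22.2%, where 24.4% did.

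**Figure D2:**
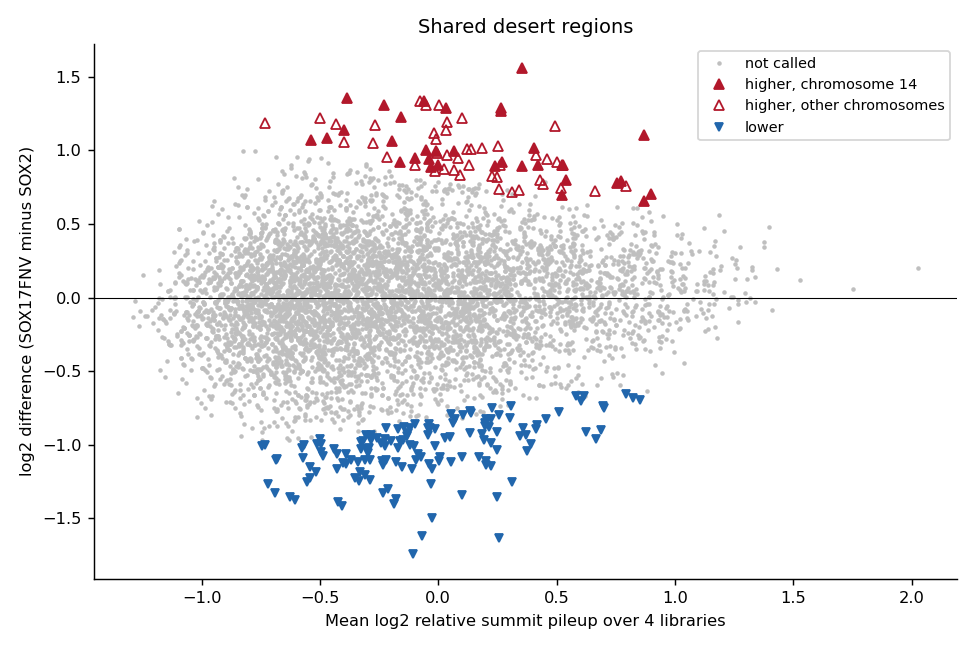
Each point is 1 of the 5972 shared desert regions, with the mean log2 relative summit pileup over the 4 libraries on the x axis and the log2 difference (SOX17FNV minus SOX2) on the y axis. Triangles mark the 77 regions called higher (filled on chromosome 14, open elsewhere) and the 143 called lower in SOX17FNV libraries.

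Chromosome 14 stood apart. Its desert regions had a median log2 difference of 0.39 and its other shared regions 0.37, while the desert medians of all other chromosomes lay between -0.10 and 0.03. Of its 356 desert regions, 33 were higher and 5 lower in SOX17FNV libraries, so 33 of the 77 higher regions came from this chromosome. The shift was about the same in desert and other regions of the chromosome, and its cause was not tested. Scaled to the chromosome's own median, 8 of its desert regions were called higher and 13 lower. Outside chromosome 14, 182 of 5616 desert regions passed (3.24%, 44 higher and 138 lower), where 1.69% of all shared regions outside it did.

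**Figure D3:**
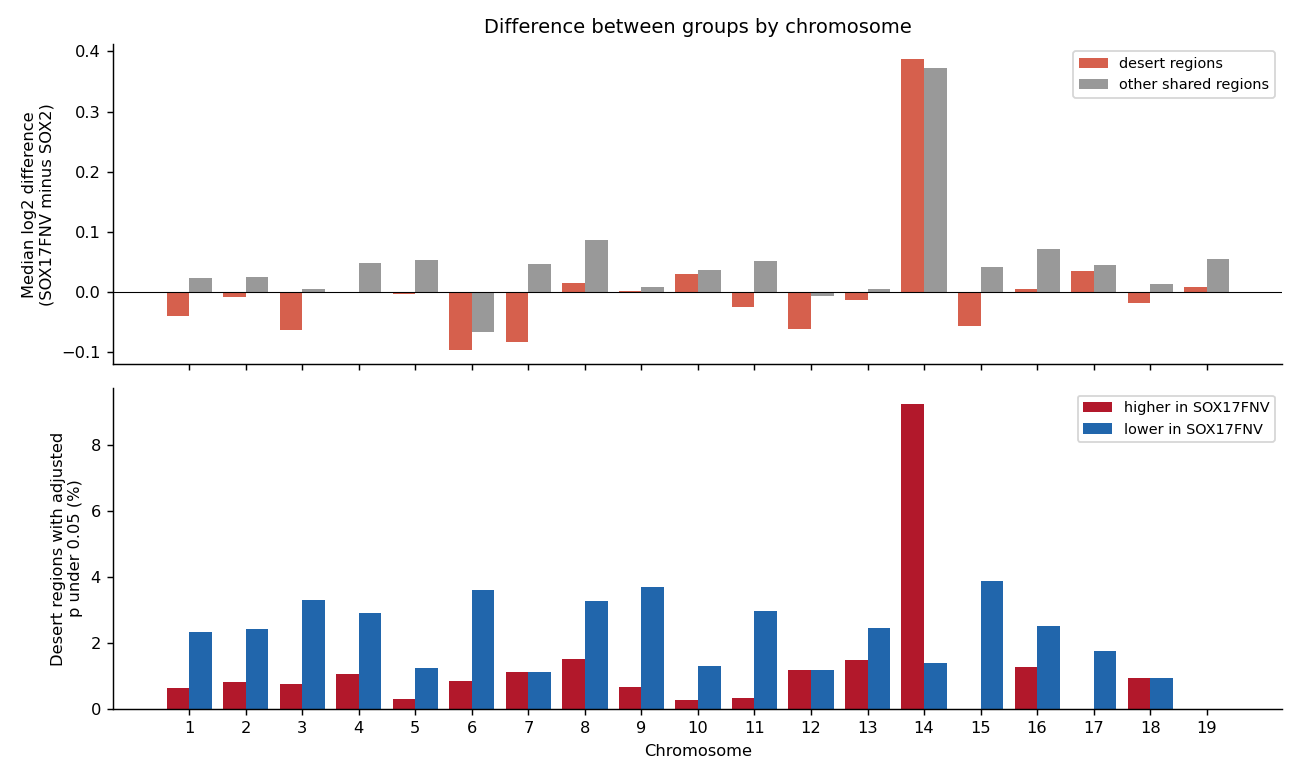
Top, median log2 difference (SOX17FNV minus SOX2) of desert and other shared regions on each chromosome. Bottom, percent of desert regions called higher or lower in SOX17FNV libraries. Chromosome 14 shows medians of 0.39 and 0.37 and 33 higher regions of 356.

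The 8 largest increases lay on chromosomes 14 (5 regions), 9, 8 and 7. The largest was 144 kb from Klf5, a Kruppel-like factor of stem cell self-renewal, at chr14:99456931-99458370. It had 72 and 53 fragments in SOX17FNV libraries, against 34 and 16 in SOX2 libraries. The groups did not overlap, and the log2 difference was 1.56 (SE 0.21, limma adjusted p = 6.37e-05). Scaled to the chromosome median it was 1.19 (limma adjusted p = 0.00122), and on the deposited fold it was 0.64 and did not pass.

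The region 86.1 kb from Wdr72, an enamel formation gene, on chromosome 9 had 45 and 40 fragments in SOX17FNV libraries, against 25 and 14 in SOX2 libraries (log2 difference 1.33, SE 0.24, limma adjusted p = 0.0016). The local background there was 7.74 and 5.98 in SOX17FNV libraries, against 4.17 and 5.02 in SOX2 libraries. Its deposited fold was 5.31 and 5.88 in SOX17FNV libraries, against 5.03 and 2.49 in SOX2 libraries. Its summits lay up to 482 bp apart between libraries. The region 68.5 kb from Otoa, an inner ear protein gene, on chromosome 7 had 52 and 35 fragments in SOX17FNV libraries, against 16 and 23 in SOX2 libraries (1.31, SE 0.25, limma adjusted p = 0.00266). The groups did not overlap at either region, and the call by Otoa was lost without SOX2 replicate 1 (log2 difference 0.83). The region nearest A230072I06Rik on chromosome 8 and those nearest Oxsm, Ednrb, Fam216b and Klhl1 on chromosome 14 had log2 differences of 1.29 to 1.35, and all 5 lost the call without SOX2 replicate 1. Ednrb encodes an endothelin receptor of neural crest cells.

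The 8 largest decreases lay on chromosomes 8, 9, 11, 13 and 15. The region 536 kb from Cntn5, a neural adhesion gene, at chr9:11441000-11442129 had 12 and 17 fragments in SOX17FNV libraries, against 58 and 49 in SOX2 libraries. The log2 difference was -1.75 (SE 0.26, limma adjusted p = 0.000128), and it passed under every alternative in which the region could be compared. The region 110 kb from Abcc12, a membrane transporter gene, at chr8:86393260-86394406 had 26 and 14 fragments in SOX17FNV libraries, against 79 and 55 in SOX2 libraries (-1.64, SE 0.21, limma adjusted p = 3.36e-05). The groups did not overlap at either region, and the second did not pass on the deposited fold (-0.71). Near Abcc12 the local background moved too, with 4.21 and 3.76 fragments in SOX17FNV libraries, against 10.2 and 10.4 in SOX2 libraries. The summits by Abcc12 lay up to 449 bp apart between libraries.

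The region 77.1 kb from Zhx2, a zinc-finger homeobox repressor, on chromosome 15 had 18 and 13 fragments in SOX17FNV libraries, against 57 and 48 in SOX2 libraries (-1.62, SE 0.23, limma adjusted p = 7.94e-05). The region 205 kb from Kirrel3, a cell adhesion gene, on chromosome 9 had 18 and 15 fragments in SOX17FNV libraries, against 62 and 43 in SOX2 libraries (-1.50, SE 0.23, limma adjusted p = 0.000207). The groups did not overlap at either, and the call by Kirrel3 was lost without SOX2 replicate 1 (-1.45). The remaining decreases, nearest Fst (which encodes follistatin, an activin antagonist), Il12b, Cdh9 and Etaa1, had log2 differences of -1.42 to -1.38 and 11 to 21 fragments in SOX17FNV libraries, and all 4 lost the call without SOX2 replicate 1.

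**Figure D4:**
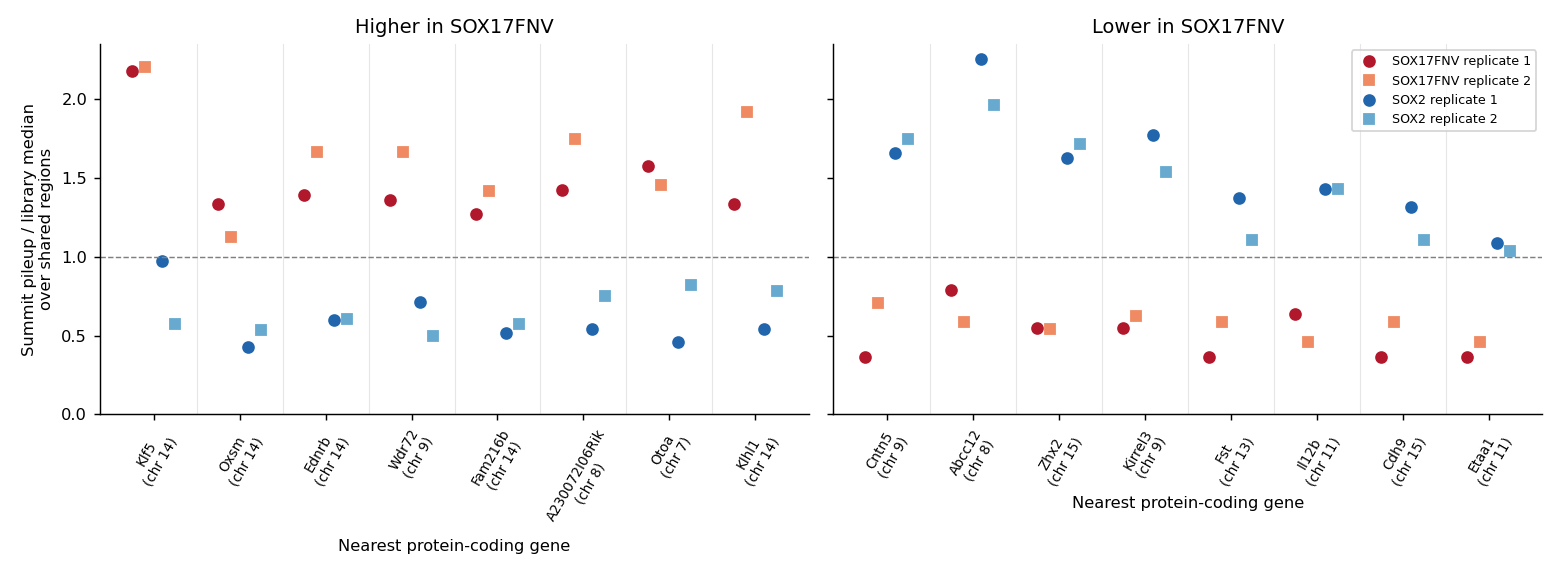
Summit pileup over the library median of shared regions in the 4 libraries, for the 8 desert regions with the largest increase (left) and the 8 with the largest decrease (right), named by nearest protein-coding gene. In all 16 regions both SOX17FNV points lie on one side of both SOX2 points, which the choice of regions fixed.

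Regions were next grouped by the role of the nearest protein-coding gene. Pluripotency genes were nearest to 117 members (13 of 27 genes, among them Sox2 with 21, Jarid2 with 20, Nr5a2 with 14 and Tbx3 with 13), of which 4 were higher and 2 lower. Their median log2 difference was -0.0042, against -0.0050 over all desert regions. The SOX family had 47 members (1 higher, 2 lower), neural genes 50 (1 higher, 2 lower), and trophectoderm genes 22 (0 higher, 1 lower). None of 17 at formative and primed genes, 22 at endoderm genes or 8 at mesoderm genes passed, lists too small to read from that, since 1.29% of all desert regions were called higher and 2.39% lower. Cell adhesion and axon guidance genes had 167 members (32 of 37 genes, 3 higher and 6 lower), and all 3 higher ones, nearest Pcdh8, Slitrk5 and Pcdh9, were on chromosome 14. Scaled to that chromosome, the region by Pcdh9 passed (0.90, limma adjusted p = 0.0221), and those by Pcdh8 (0.62, limma adjusted p = 0.174) and Slitrk5 (0.86, limma adjusted p = 0.0519) did not. Nearest is a matter of distance, and no member was tied to its gene by a measurement.

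In the desert between Dnajc19 and Sox2, the region 179 kb from Sox2 at chr3:34469835-34470643 rose, with 52 and 33 fragments in SOX17FNV libraries, against 26 and 22 in SOX2 libraries (0.95, SE 0.22, limma adjusted p = 0.0121). It lost the call without SOX17FNV replicate 1 or either SOX2 library. The distal run lay on the other side of Sox2, in the desert towards Atp11b. Its highest summit, 108 kb from Sox2 at chr3:34760019-34761616, had 75 and 66 fragments in SOX17FNV libraries, against 94 and 68 in SOX2 libraries (-0.03, limma adjusted p = 0.967). The percentiles of fold of that summit were only 16.0 and 37.5 in SOX17FNV libraries and 25.3 and 27.7 in SOX2 libraries.

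Of the 10 regions nearest Klf5, 3 rose. Besides the leading one, those 196 and 203 kb away had log2 differences of 0.70 and 0.90 (limma adjusted p = 0.0223 and 0.0252), and neither passed when scaled to the chromosome (0.33 and 0.53) or without SOX17FNV replicate 2 or either SOX2 library. On the deposited fold both turned round, to -0.33 and -0.17. The local background of the nearer one was 9.75 and 8.51 fragments in SOX17FNV libraries, against 5.14 and 5.02 in SOX2 libraries. Of the 10 nearest Myc, the growth regulator, 2 fell, those 57.0 and 199 kb away. The first had 13 and 11 fragments in SOX17FNV libraries, against 31 and 23 in SOX2 libraries (-1.01, SE 0.28, limma adjusted p = 0.047). The second had 14 and 10 in SOX17FNV libraries, against 32 and 22 in SOX2 libraries (-1.01, SE 0.28, limma adjusted p = 0.0458). Both calls were lost without SOX17FNV replicate 1 or either SOX2 library, and the second also without SOX17FNV replicate 2. The region 172 kb from Sox9, which specifies cartilage and testis, had 21 and 15 fragments in SOX17FNV libraries, against 48 and 47 in SOX2 libraries (-1.27, SE 0.23, limma adjusted p = 0.00166), and this call was lost without SOX2 replicate 1 (-1.46).

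**Figure D5:**
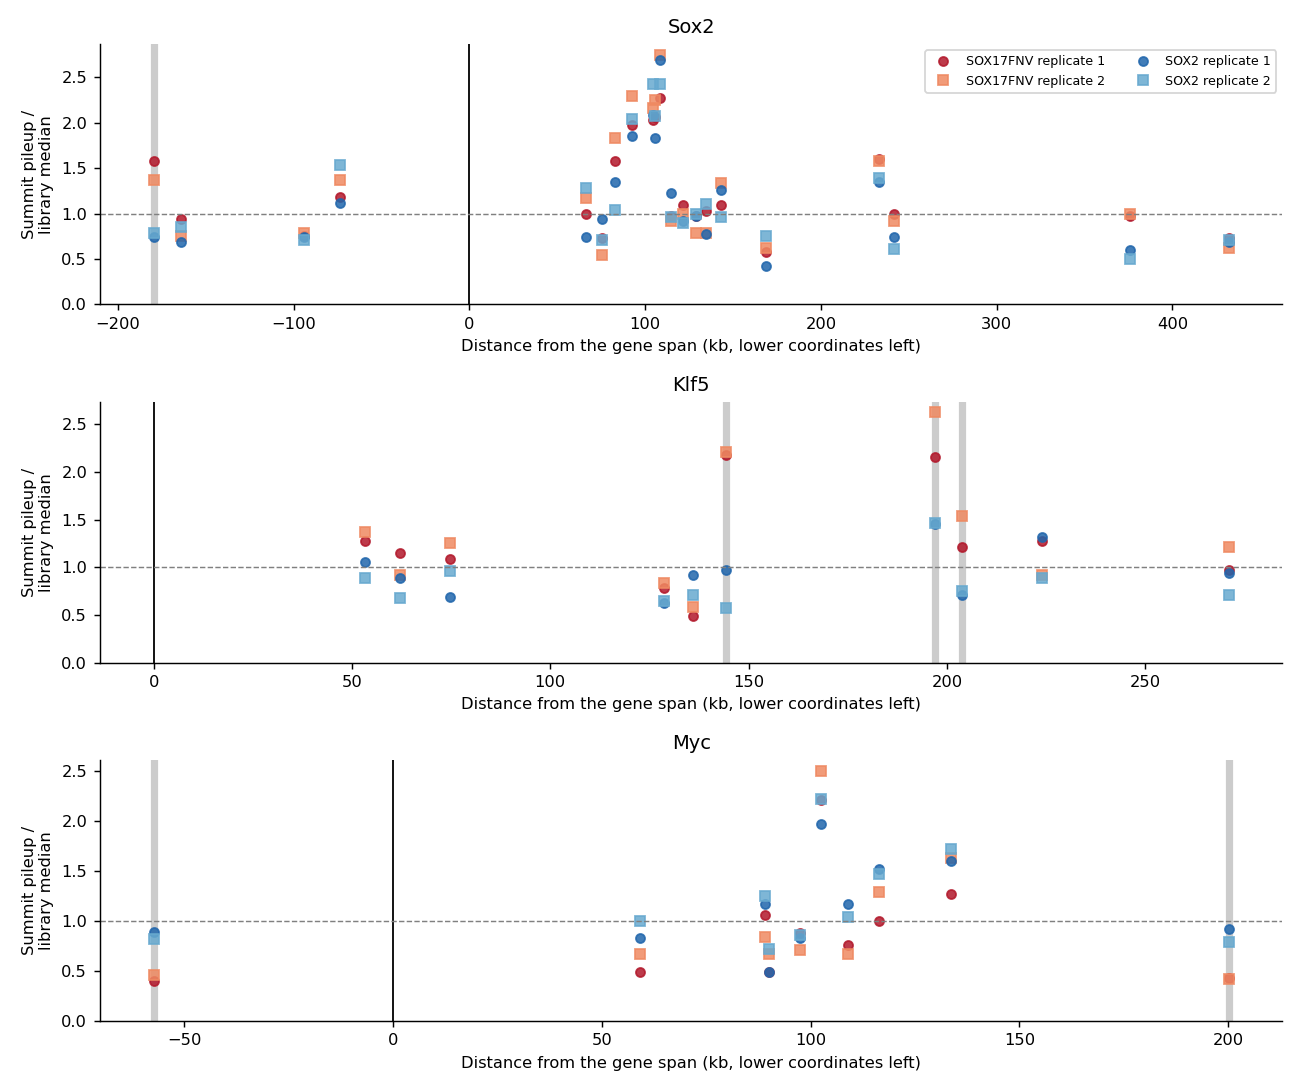
Relative summit pileup of desert regions nearest Sox2, Klf5 and Myc in each library, by distance from the gene span in kb, with called regions on grey bars. The Sox2 run near 108 kb is high in all 4 libraries, 3 regions by Klf5 are higher and 2 by Myc lower in SOX17FNV libraries. The 2 farther ones by Klf5 lose the call when scaled to the chromosome and turn round on the deposited fold (-0.33 and -0.17).

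Non-coding genes overlapped 1511 desert regions (25.3%), most of them lncRNA genes (1342 regions, 943 genes). The longest lists were 14 regions in 5730522E02Rik and 14 in Gm31615, of which none in the first and 2 in the second fell. Pvt1, the lncRNA gene beside Myc, overlapped 9, of which 1 fell. Lncenc1, a lncRNA of naive stem cells, overlapped 8, of which none passed. Of 17 pluripotency-associated transcript (Platr) genes, 5 were overlapped (Platr22 by 3 regions, Platr26 and Platr25 by 2, Platr4 and Platr11 by 1). None of these regions passed. Of all desert regions, 3.68% were called in either direction. The regions in Pvt1, Lncenc1, the Platr genes and the longest lists are too few to compare with that share. A lack of calls among them does not show that they were unchanged. The Platr26 region shown above had 73 and 53 fragments in SOX17FNV libraries, against 66 and 55 in SOX2 libraries (log2 difference 0.20, limma adjusted p = 0.677).

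The 155 members holding a lncRNA promoter ranked higher by fold than the other members. Their median percentiles were 80.4 and 77.0 in SOX17FNV libraries and 85.1 and 77.9 in SOX2 libraries, against 77.5 and 67.6 in SOX17FNV libraries and 79.3 and 69.7 in SOX2 libraries for the other 5817 (exact p = 0.125, higher in 4 of 4 libraries). They were also wider, with median peak widths of 815 and 633 bp in SOX17FNV libraries and 867 and 699 bp in SOX2 libraries. Wider regions hold a whole window more easily, so the choice of these members itself favoured width. Of the promoter windows, 2 were in regions that rose and 6 in regions that fell, of 179 windows, where 1.29% of all desert regions were called higher and 2.39% lower.

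The Gm33714 promoter region, 65.6 kb from Nptx2, fell, with 16 and 15 fragments in SOX17FNV libraries, against 47 and 42 in SOX2 libraries (log2 difference -1.37, SE 0.25, limma adjusted p = 0.00148). The Gm52029 promoter region, 405 kb from Id4, an inhibitor of neural differentiation factors, fell with 25 and 19 fragments in SOX17FNV libraries, against 49 and 54 in SOX2 libraries (-1.09, SE 0.22, limma adjusted p = 0.00376). The 1700062C10Rik promoter region on chromosome 14 rose, with 79 and 72 fragments in SOX17FNV libraries, against 40 and 38 in SOX2 libraries (1.11, SE 0.18, limma adjusted p = 0.000397). Scaled to its chromosome, that difference was 0.73 (limma adjusted p = 0.0171). The calls at Gm33714 and 1700062C10Rik were lost without SOX2 replicate 1, and that at Gm52029 without SOX2 replicate 2. The BC002059 promoter region had 70 and 70 fragments in SOX17FNV libraries, against 62 and 66 in SOX2 libraries, and did not pass (0.28, limma adjusted p = 0.535).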

How the data were processed

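ATAC-seq peak lists of 4 libraries were analysed, 1 per library. Per the submitters' processing notes, the tools were Bowtie2, SAMtools and MACS2 on mm10; their versions and settings: not given in the sources used here. The deposited fold is the ratio of summit pileup to local background, with a small constant added to each. It stands beside the authors' deposited -log10 p-value and q-value and a score. Read totals were not used, and depth was read from the lists: median pileups over shared regions were 33 and 24 fragments in SOX17FNV libraries and 35 and 28 in SOX2 libraries. Pileups were solved from fold and p, divided by that median and tested as log2 values with limma 3.58.1 (R 4.3.3, trend, no pseudocount); other steps used Python 3.11.15. The steps were tested on simulated data, in which limma called 0% of 1.5-fold, 2.99% of 2-fold and 24.2% of 3-fold changes. Only 67, 67 and 66 of 56427 simulated regions carried these changes. With so few, the adjustment is stricter than in the data, where 2.01% of shared regions passed. The simulated shares are thus not the recovery in the data, where desert regions called higher had log2 differences down to 0.65. A region that did not pass may still differ. Gene spans came from the RefSeq GRCm38.p6 table, leaving out 105 spans placed below 3 Mb. Merging needed 1 bp of overlap. Named regions are the 10 strongest by percentile of fold (1 of them is not reported here), the 8 largest differences each way that passed and did not overlap, the 5 farthest, the fullest, densest and longest deserts and runs, the strongest of each gene list and non-coding type, and those nearest 50 kb. Regions named beyond this rule (Sox2, Klf5, Myc, Sox9, the promoters, microRNAs, Lncenc1 and Platr genes) were chosen after their values were seen. The members and lists were chosen with earlier results of these data known. Alternatives covered q, distance, gene types, merging, list length, left-out libraries, scaling and the model.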

Additional observations from a re-analysis of the deposited data

How the results depend on the processing

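Leaving out each library in turn gave 6277 to 7309 shared desert regions, 7 to 79 higher, 7 to 219 lower and a median log2 difference of -0.09 to -0.02; no such fit reversed a named region. The region count was 2525 with a -log10 q of at least 5, 1014 with at least 10, 9407 at 25 kb, 3309 at 100 kb and 1430 with gene spans of every type. Regions higher and lower numbered 42 and 58 at q 5, 7 and 22 at q 10, 42 and 89 at 100 kb, 19 and 36 with every gene type, 9 and 41 with the deposited fold, 17 and 38 after quantile normalization and 22 and 54 without limma's trend. Those higher numbered 46 with the chromosome median and 42 in a fit without chromosome 14. The near-zero median difference turned positive at 25 kb (0.0076) and with every gene type (0.0013). The percentile of pileup reversed the strength comparison (-11.5). With the deposited fold, 3 of 43 named regions reversed and 23 lost the call: those at chromosome 14 near Ankrd28 (-0.044) and the 2 weaker ones by Klf5 (-0.33 and -0.17). The percentile, width and background comparisons otherwise kept their direction under every alternative run. Replicate numbers were not treated as pairs, because there are only 2 and the labels name no shared batch; same-numbered deviations correlated at 0.234, and a replicate block gave 252 higher and 328 lower. The alternative keeping summits within 250 bp was chosen after seeing the data and gave 54 and 110. The cause of these shifts was not tested. Low pileups limit precision: the lowest called pileups were 10 to 13 fragments.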
